A study of Mus musculus with 18 samples.

Results

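Hspb1 and Hspb2 are the small heat shock genes on the nCounter mouse inflammation panel, and they are 2 of the 248 panel genes that are not housekeeping genes. They were chosen by name, and Hspb1 was picked because its values spread widely over these samples, so the values of Hspb1 are described without a test. Hspb2 was named with Hspb1, not for a spread of its own, and was tested. Both genes, and the gene lists used below, were chosen with earlier results of these data known. No other gene of the heat shock protein families was among the genes measured.

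Small heat shock proteins are chaperones that need no ATP and hold unfolding proteins so that other chaperones can refold them. HSPB1, called HSP25 in mice, is present in many tissues, binds actin filaments, and is phosphorylated by MAPKAPK2 downstream of p38 MAP kinases. Its gene is switched on by heat shock factor 1, which binds repeated GAA and TTC blocks called heat shock elements. HSPB2, also known as the binding protein of the myotonic dystrophy kinase, is made mainly in heart and skeletal muscle, and its gene is not regarded as heat inducible. Cryab, which encodes the small heat shock protein alpha B crystallin, lies beside Hspb2: the span of Hspb2 is inside that of Cryab in the RefSeq gene table of GRCm38.p6.

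Total RNA from tibialis anterior muscle, a fast muscle of the lower leg, was measured in male mice of 3 cancer cachexia models, with 100 ng of RNA loaded per sample. The 18 samples form 6 groups of 3, named here by the letters A to C of the labels. C26 tumor-bearing mice were CD2F1 mice injected with C26 cells, a colon carcinoma line, and C26 controls were CD2F1 mice without a tumor. LLC tumor-bearing mice were C57/B6 mice injected with LLC cells, the Lewis lung carcinoma line, and LLC controls were C57/B6 mice without a tumor. KPP tumor-bearing mice were C57/B6 mice in which intraperitoneal tamoxifen induced tumor formation, and KPP controls were C57/B6 mice without a tumor. The labels used here give neither the alleles of the KPP mice, nor the age of any group, nor whether the KPP controls received tamoxifen. They also do not say that each sample came from a separate mouse, so p-values measure the spread between these samples.

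All levels below are deposited normalized values, in which the 6 housekeeping genes were brought to one level separately for each model, so that levels are compared within a model. Counts behind the gene values ranged from 29757 to 402895 per sample. Counting error was between 0.345% and 4.71% for Hspb1 and between 1.54% and 5.11% for Hspb2, and it covers counting only. Of the 248 genes, 168 reached 20 in at least 3 samples and were tested, both small heat shock genes among them. A gene was called at a limma adjusted p under 0.05. The panel holds no fast fiber marker. Myl2, the slow fiber and cardiac myosin light chain, was above 20 in every sample but C26 control A, where it stood at 7.90.

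The promoter of Hspb1 is shown because its response to stress runs through heat shock elements. The window covers 250 bases before and 50 bases after the transcription start, at chr5:135887669-135887968 on the plus strand of GRCm38.p6, from RefSeq. Capitals mark matches to GAANNTTC, a head-to-head pair of heat shock blocks that reads the same on both strands.
Hspb1: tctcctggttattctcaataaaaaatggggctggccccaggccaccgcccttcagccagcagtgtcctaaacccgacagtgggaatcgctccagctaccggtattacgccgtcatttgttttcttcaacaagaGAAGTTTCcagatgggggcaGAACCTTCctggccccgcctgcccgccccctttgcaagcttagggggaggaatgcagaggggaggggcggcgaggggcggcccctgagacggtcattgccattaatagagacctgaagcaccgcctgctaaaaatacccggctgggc
The window held 2 matches that do not overlap, GAAGTTTC at bases 134 to 141 and GAACCTTC at bases 154 to 161, counted from 1 at the 5′ end. Of 32851 promoter windows of the same length, 2582 (7.86%) held at least 1 match and 113 (0.344%) held 2 or more. A match describes the letters and does not show binding.

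Hspb1 split the KPP tumor-bearing group into high and low samples. In KPP tumor-bearing mice Hspb1 stood at 2591 in sample A, 50741 in sample B and 62299 in sample C, against 3738, 3881 and 3534 in KPP controls A, B and C. Samples B and C lay far above all 3 controls and sample A lay below all 3, so the groups overlapped. The mean was 38544 ± 31667 in KPP tumor-bearing mice and 3718 ± 175 in KPP controls (SD, n = 3 each). On the log2(value + 1) scale, which is used for all differences below, the tumor-bearing minus control difference of means was 2.44, a 5.43-fold ratio of geometric means. That difference describes none of the 3 tumor-bearing samples: it was 3.92 without tumor-bearing A, 1.77 without B and 1.63 without C. Hspb1 made up 1.32%, 20.9% and 25.5% of all gene counts in tumor-bearing A, B and C, against 1.83% to 1.97% in the KPP controls.

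C26 mice showed a wide spread of Hspb1 in the controls. Hspb1 was 920.3, 1112 and 980.1 in C26 tumor-bearing A, B and C, against 1112, 3036 and 9342 in C26 controls A, B and C. The tumor-bearing samples were close together, 2 of them were below all controls, and tumor-bearing B stood level with control A, at 1112.29 against 1111.76. The mean was 1004 ± 98.2 in C26 tumor-bearing mice and 4497 ± 4305 in C26 controls (SD, n = 3 each). The difference of means on the log2 scale was -1.66, and it depended on single controls, with -0.88 without control C and -2.41 without control A.

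Hspb1 varied least in LLC mice. It was 1577, 1147 and 2036 in LLC tumor-bearing A, B and C, against 1369, 1189 and 1242 in LLC controls A, B and C. Tumor-bearing A and C were above all controls and tumor-bearing B was below all of them, so these groups overlapped too. The mean was 1586 ± 445 in LLC tumor-bearing mice and 1267 ± 92.6 in LLC controls (SD, n = 3 each), a log2 difference of 0.29, which was 0.09 without tumor-bearing C and 0.50 without tumor-bearing B. Under the other 3 scalings the Hspb1 difference kept its sign in each model and lay between -1.25 and -0.98 in C26. It lay between 0.23 and 0.30 in LLC, and between 1.69 and 2.44 in KPP. In KPP and LLC the tumor-bearing group held the wider spread, while in C26 the control group did.

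**Figure D1:**
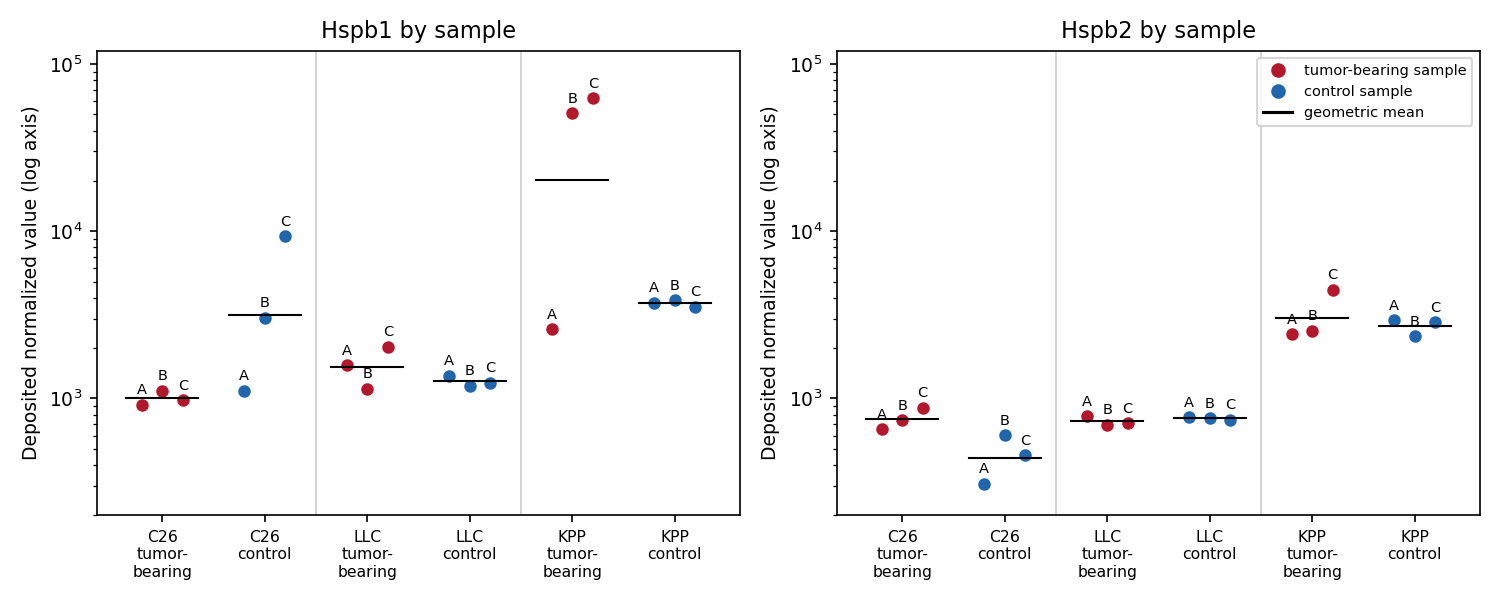
Deposited normalized values of Hspb1 and Hspb2 in each sample, on a log axis, with 3 samples per group marked by their letters and black lines at the geometric means. KPP tumor-bearing B and C stand at 50741 and 62299 for Hspb1 while tumor-bearing A stands at 2591, and the Hspb2 values of the same 3 samples run from 2426 to 4478.

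Against the other genes tested, Hspb1 was among the more variable in KPP tumor-bearing mice, LLC tumor-bearing mice and C26 controls, and below the median in the other 3 groups. Its within-group SD on the log2 scale ranked 2 of 168 in KPP tumor-bearing mice (2.57, where the median gene had 0.44) and 149 of 168 in KPP controls (0.07, median 0.27). In C26 it ranked 132 in tumor-bearing mice (0.14, median 0.30) and 21 in controls (1.54, median 0.64). In LLC it ranked 24 in tumor-bearing mice (0.41, median 0.20) and 94 in controls (0.10, median 0.11). The gene was chosen for this spread, so these ranks describe the choice. The SD of Hspb2 ranked between 76 and 133 in the 6 groups.

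**Figure D2:**
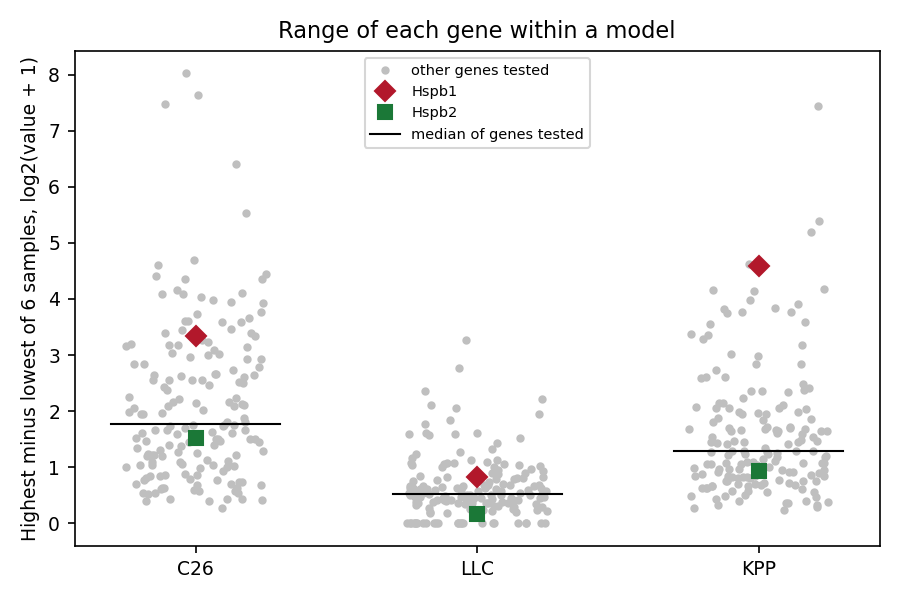
Highest minus lowest of the 6 samples of a model, on the log2(value + 1) scale, for each of 168 genes, with Hspb1 and Hspb2 marked and lines at the medians. Hspb1 spans 4.59 in KPP, where the median gene spans 1.28, and Hspb2 spans 0.93.

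Hspb2, the muscle-enriched member, was higher in tumor-bearing than in control mice in C26 and did not pass the test in LLC or KPP. In C26 it stood at 654, 739.95 and 882 in tumor-bearing A, B and C, against 308, 605 and 456 in controls A, B and C. Every tumor-bearing sample was above every control. The C26 groups did not overlap in this direction for 11.3% of the 168 genes, in the other for 26.8%, and in either for 38.1%. The mean was 759 ± 115 in C26 tumor-bearing mice and 456 ± 148 in C26 controls (SD, n = 3 each). The log2 difference was 0.77 (SE 0.26, 95% interval 0.22 to 1.33, adjusted p = 0.0389). Of the 168 genes 30.4% were called in C26, 8.93% higher and 21.4% lower in tumor-bearing mice, so a call in this model was common. An exact two-sided permutation test of Hspb2 alone gave p = 0.10, the smallest that 3 against 3 samples allow.

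The C26 call of Hspb2 was close to the threshold. It was lost when any of 9 samples was left out: C26 control A (0.52, adjusted p = 0.125), the control with the lowest Hspb2, C26 control C (0.80, adjusted p = 0.0574), C26 tumor-bearing A (0.88, adjusted p = 0.0522), B (0.79, adjusted p = 0.0881) or C (0.66, adjusted p = 0.125), each of the 3 LLC controls, or LLC tumor-bearing A. The last 4 left the difference at 0.77, with adjusted p of 0.05003 to 0.0527. The call was also lost in a fit of the 6 C26 samples alone (adjusted p = 0.198), in which 4 genes passed in place of 51. It held, with larger differences, under 3 other scalings: 1.18 when scaled to 4 housekeeping genes without Gapdh and Pgk1 (adjusted p = 0.00697), 1.34 with median centring (adjusted p = 0.00662) and 1.21 with quantile normalization (adjusted p = 0.00354). These scalings move all genes: the median difference of the 168 genes in C26 was -0.31 as deposited and 0.09, 0.25 and 0.16 under the 3 scalings. They also turned the split of higher and lower calls in C26, which was 15 and 36 as deposited and became 28 and 19, 30 and 16, and 29 and 21. Gapdh and Pgk1, glycolytic genes among the housekeeping set, stood 0.79 and 0.85 higher on the log2 scale in C26 tumor-bearing mice, and Cltc, Gusb, Hprt and Tubb5 stood between 0.61 and 0.29 lower.

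In LLC mice Hspb2 was almost level. It stood at 781, 695 and 714 in tumor-bearing A, B and C, against 771, 762 and 745 in controls A, B and C, and the groups overlapped. The LLC groups did not overlap for 13.7% of genes with tumor-bearing mice higher, 7.14% with them lower and 20.8% in all. The mean was 729.9 ± 45.3 in LLC tumor-bearing mice and 759 ± 13.4 in LLC controls (SD, n = 3 each), a log2 difference of -0.06 (95% interval -0.62 to 0.50, adjusted p = 1). In LLC limma called 0 of 168 genes (0.00% higher and 0.00% lower), while 4 had an unadjusted p under 0.05, and a fit of the 6 LLC samples alone also called 0, with 26 at an unadjusted p under 0.05. In the fit of LLC alone the 95% interval of Hspb2 was narrower, -0.19 to 0.08.

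In KPP mice Hspb2 did not follow Hspb1. It stood at 2426, 2537 and 4478 in tumor-bearing A, B and C, against 2942, 2351 and 2851 in controls A, B and C. Only tumor-bearing C lay above all controls, and tumor-bearing B, with 50741 of Hspb1, lay within their range. The KPP groups did not overlap for 16.1% of genes with tumor-bearing mice higher, 14.3% with them lower and 30.4% in all. The mean was 3147 ± 1154 in KPP tumor-bearing mice and 2715 ± 319 in KPP controls (SD, n = 3 each), a log2 difference of 0.16 (95% interval -0.40 to 0.72, adjusted p = 0.767). A fit of the KPP samples alone gave a 95% interval of -0.57 to 0.89. The sign of the difference turned without tumor-bearing C (-0.12) and when scaled to 4 housekeeping genes (-0.04). Of the 168 genes 11.3% were called in KPP, 5.36% higher and 5.95% lower in tumor-bearing mice.

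The tumor effect on Hspb2 was not shown to differ between models as deposited. The difference of effects was 0.83 for C26 minus LLC (95% interval 0.04 to 1.62, adjusted p = 0.132), 0.61 for C26 minus KPP (95% interval -0.18 to 1.40, adjusted p = 0.252) and 0.22 for KPP minus LLC (95% interval -0.57 to 1.01, adjusted p = 0.822). Of the 168 genes 14.9%, 16.1% and 0.595% passed these tests. The C26 minus LLC difference passed under the other 3 scalings, with values of 1.30, 1.46 and 1.55 and adjusted p of 0.0444, 0.0491 and 0.0117. The C26 minus KPP difference passed when scaled to 4 housekeeping genes (1.22, adjusted p = 0.0438) and with quantile normalization (1.14, adjusted p = 0.0392), and not with median centring (1.17, adjusted p = 0.101).

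**Figure D3:**
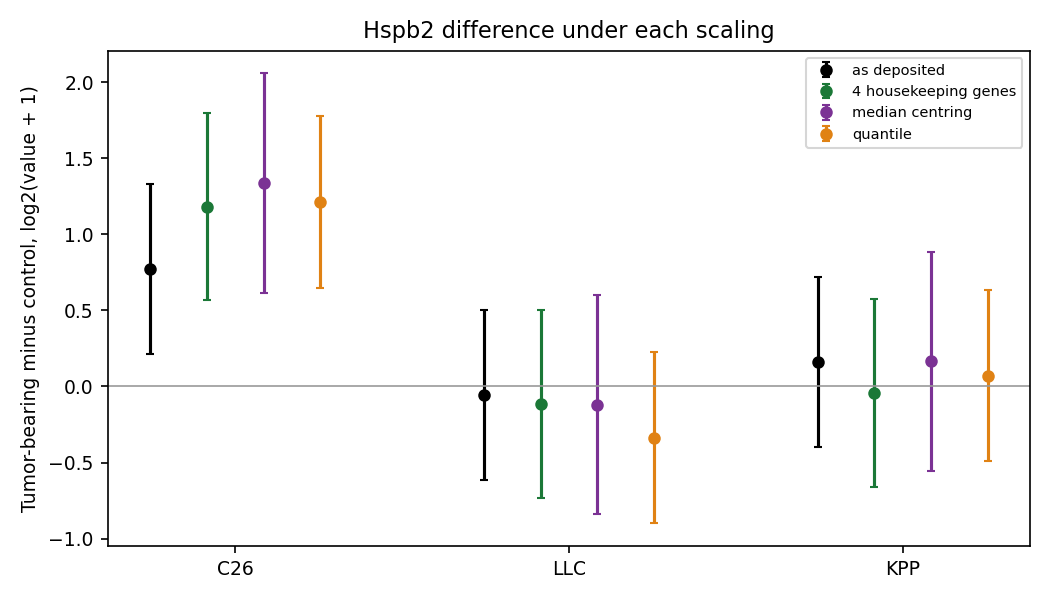
Tumor-bearing minus control difference of Hspb2 in each model on the log2(value + 1) scale, with 95% intervals from the limma fit of all 18 samples, as deposited and under 3 other scalings. The C26 intervals lie above 0 under all 4 scalings, and the LLC and KPP intervals include 0. In a fit of C26 alone, not drawn, the interval as deposited includes 0 (-0.03 to 1.58).

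The ratio of Hspb1 to Hspb2 within a sample does not change when all values of a sample are multiplied by one factor, as in scaling to housekeeping genes, but quantile normalization can change it. It is given for the deposited values as a description because it contains Hspb1. It was 1.41, 1.50 and 1.11 in C26 tumor-bearing A, B and C, against 3.60, 5.02 and 20.5 in C26 controls A, B and C. Every C26 tumor-bearing sample was below every control in this ratio, with mean log2 ratios of 0.41 ± 0.23 and 2.84 ± 1.33 (SD, n = 3 each). Hspb2 alone also separated these groups, and Hspb1 alone did not. Among single genes 38.1% of the 168 did not overlap in C26, and ratios of other genes were not examined. The ratio was 2.02, 1.65 and 2.85 in LLC tumor-bearing A, B and C, against 1.78, 1.56 and 1.67 in LLC controls. It was 1.07, 19.999 and 13.9 in KPP tumor-bearing A, B and C, against 1.27, 1.65 and 1.24 in KPP controls. KPP tumor-bearing A had the lowest ratio of all 18 samples, and C26 control C and KPP tumor-bearing B had the highest.

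**Figure D4:**
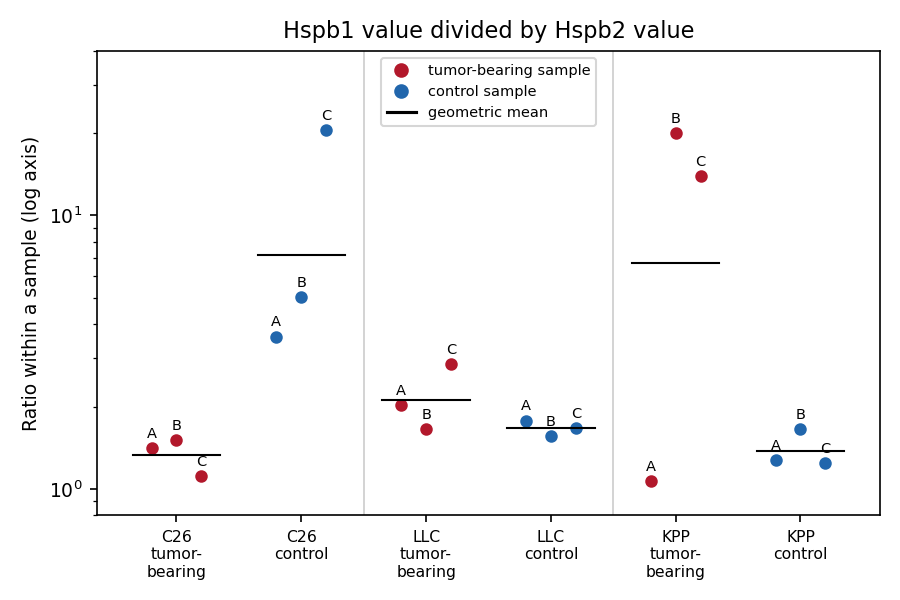
Hspb1 value divided by Hspb2 value in each sample, on a log axis, with black lines at the geometric means of 3 samples. C26 tumor-bearing samples run from 1.11 to 1.50, below all C26 controls, while KPP tumor-bearing B and C, at 19.999 and 13.9, lie above all KPP controls.

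The genes whose values were most like those of Hspb1 over the 18 samples, after the mean of each model was subtracted, were Tlr4, Jun, Mafk, Cebpb and Rela. Pearson's r was 0.88 for Tlr4, the receptor for bacterial lipopolysaccharide, 0.86 for Jun, a subunit of the AP-1 transcription factor, and 0.85 for Mafk, a small MAF factor that pairs with NRF2 or BACH proteins. It was 0.84 for Cebpb, which encodes a factor that switches on acute phase genes, and 0.83 for Rela, the p65 subunit of NF-kB. Spearman's rho ran from 0.75 for Cebpb to 0.89 for Mafk. Without KPP tumor-bearing B and C, the samples with the highest Hspb1, r over the remaining 16 samples was 0.66, 0.84, 0.85, 0.67 and 0.90 for Tlr4, Jun, Mafk, Cebpb and Rela, lower than before for Tlr4 and Cebpb. Over the 12 C26 and LLC samples, with all KPP samples left out, r was 0.70 for Tlr4 and 0.81 for Cebpb. These correlations are descriptions over samples that share the scaling to housekeeping genes. Hspb2 ranked 88 of 167 genes in likeness to Hspb1, with r of 0.12, or -0.27 over those 16 samples.

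The levels of these genes show where the likeness lies. Tlr4 was 131, 1071 and 603 in KPP tumor-bearing A, B and C, against 102 to 157 in KPP controls. Jun was 1194, 2300.4 and 2337 in KPP tumor-bearing A, B and C, against 725 to 1280 in KPP controls. Jun was also high in C26 control C, at 1038, against 260.1 and 606 in C26 controls A and B and 280.3 to 397 in C26 tumor-bearing mice. Cebpb stood at 2663, 6244 and 4003 in KPP tumor-bearing A, B and C, against 1520 to 1661 in KPP controls. Cebpb differed from Hspb1 in KPP tumor-bearing A, which was above all KPP controls for Cebpb and below all of them for Hspb1. Rela and Mafk were also highest in C26 control C among the C26 samples, at 212 and 190.1.

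For Hspb2 the most alike genes were Map3k7, which encodes the kinase TAK1 (r of 0.72), Ddit3, the CHOP factor of the unfolded protein response (0.66), Nos2, the inducible nitric oxide synthase (0.64), the growth factor gene Pdgfa (0.61) and Gnas, which encodes the stimulatory G protein alpha subunit (0.61). Spearman's rho was lower for Map3k7 (0.53), Ddit3 (0.43), Pdgfa (0.45) and Gnas (0.45), and was 0.64 for Nos2. For Map3k7, Pdgfa and Gnas r was 0.86, 0.78 and 0.93 over the 12 C26 and LLC samples together, and 0.00, -0.11 and -0.50 within the 6 KPP samples. No r was computed within C26 or LLC alone. Hspb2 itself spanned 0.17 on the log2 scale in LLC, against 1.51 in C26. Nos2 was at the floor of 20 in the 3 LLC tumor-bearing samples and LLC control C, against 26.1 and 23.4 in LLC controls A and B, and had C26 values of 29.0 to 35.1 in tumor-bearing mice and 9.79 to 14.3 in controls, near background.

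**Figure D5:**
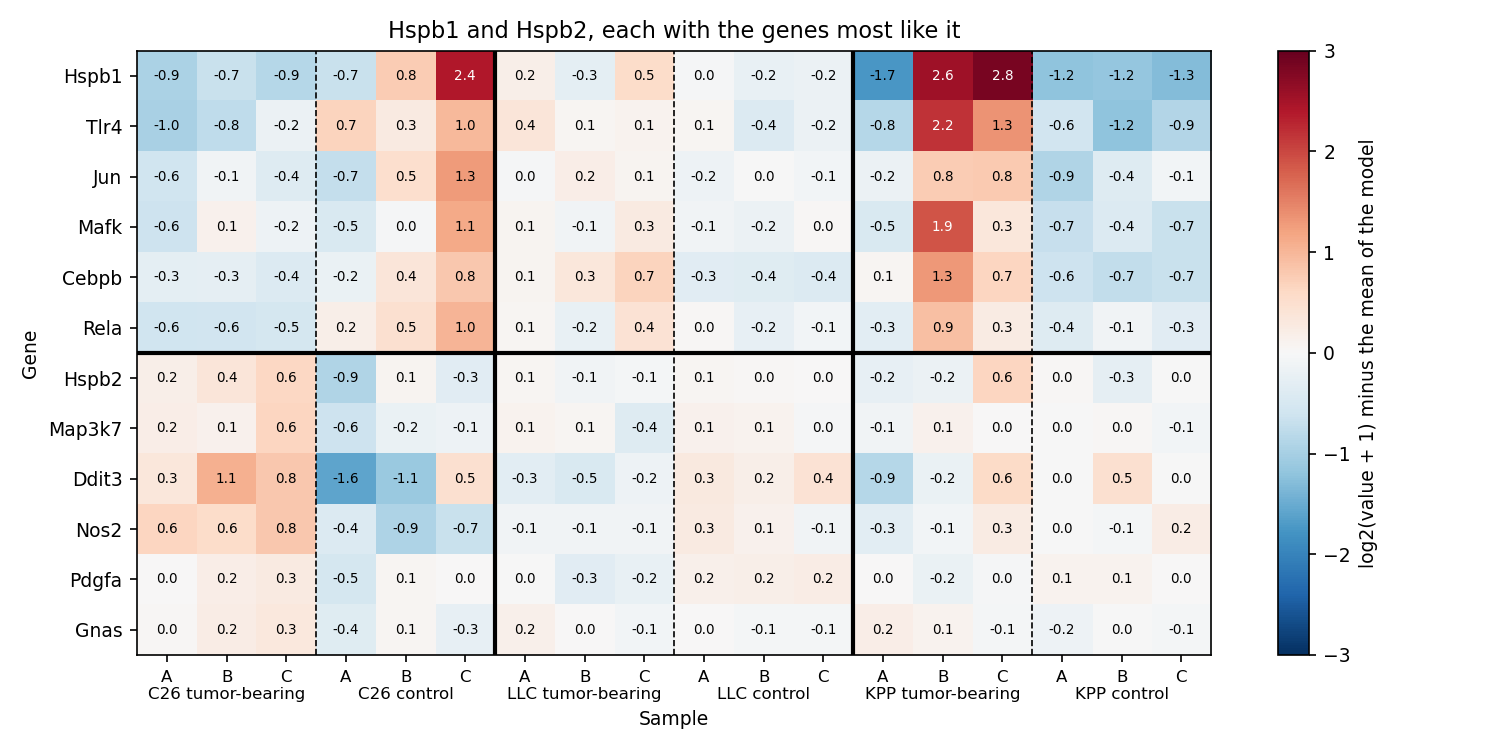
log2(value + 1) minus the mean of the model, by color and number, for Hspb1 and Hspb2 and the 5 genes most like each, in the 18 samples. Red marks values above the mean of the model: Hspb1 and the genes below it are red in C26 control C and in KPP tumor-bearing B and C, while Hspb2 is highest in the C26 tumor-bearing samples and in KPP tumor-bearing C.

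HSPB1 is a target of the p38 cascade, and of 24 listed p38 and JNK kinases and their targets 22 were tested. In C26 tumor-bearing mice 5 were called higher and 2 lower, in a model in which 30.4% of all 168 genes were called, so the share called was near that of all genes. The median difference was 0.24, against -0.31 over all 168 genes. Map2k6, a kinase that activates p38, averaged 392 ± 9.40 in C26 tumor-bearing mice and 85.0 ± 32.3 in C26 controls (SD, n = 3 each), a log2 difference of 2.26 (adjusted p = 0.00262). Map3k7 rose by 0.65 (adjusted p = 0.0261), Ddit3 by 1.47 (adjusted p = 0.0254) and Rps6ka5, which encodes the kinase MSK1, by 1.06 (adjusted p = 0.0264). These 3 calls rested on single C26 samples. Map3k7 was lost without control A (0.50, adjusted p = 0.0717) or tumor-bearing C (0.48, adjusted p = 0.112). Ddit3 was lost without control A (1.04, adjusted p = 0.0826), control B, tumor-bearing B or tumor-bearing C (adjusted p of 0.0589 to 0.0881). Rps6ka5 was lost without control A (0.86, adjusted p = 0.0811), control C, tumor-bearing A or tumor-bearing B (adjusted p of 0.0573 to 0.0923). Under the other 3 scalings the Map3k7 difference was larger, at 1.05 to 1.21. Mapkapk5, the gene of a kinase related to MAPKAPK2, was also called, but its mean of 18.5 in C26 tumor-bearing mice and 1.73 in C26 controls lay below 20. The transcription factor gene Myc fell by 2.27 (adjusted p = 0.00677), and Elk1, called lower, lay below 20 in all 6 samples and was no longer called under the other 3 scalings or without control A, control C, tumor-bearing A or tumor-bearing C (adjusted p of 0.0674 to 0.116).

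Mapkapk2, the kinase gene closest to HSPB1, was singled out for its role and is outside the rule for named genes. It averaged 1221 ± 81.3 in C26 tumor-bearing mice and 839.9 ± 181 in C26 controls (SD, n = 3 each), with a log2 difference of 0.56 that missed the threshold (adjusted p = 0.0502). Its difference was -0.11 in LLC and 0.14 in KPP (adjusted p = 1 and 0.735). In KPP tumor-bearing mice 1 of the 22 genes was called, and it was lower, beside 11.3% of all 168 genes called and 5.95% called lower. That gene, Map2k6, averaged 220.4 ± 175 in KPP tumor-bearing mice and 1085 ± 13.7 in KPP controls (SD, n = 3 each), a log2 difference of -2.61 (adjusted p = 0.0021). The medians of the list were 0.12 in KPP and 0.02 in LLC, against 0.01 over all 168 genes in both models, and no member was called in LLC.

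MEF2 factors drive muscle genes, and of 8 listed MEF2 factors and muscle genes 7 were tested. In C26 tumor-bearing mice Map2k6 and Mef2c (1.16, adjusted p = 0.0146) were called higher. Hdac4, a deacetylase that represses MEF2, was called lower (-1.50, adjusted p = 0.00318). These are 3 calls of 7, beside 30.4% of all 168 genes called, 8.93% higher and 21.4% lower, and Map2k6 is also on the p38 list. Mef2a (-0.29, adjusted p = 0.512) and Mef2d (0.12, adjusted p = 0.736) were not called. A link between these genes and Hspb2 was not tested. Hdac4 was no longer called with median centring (-0.93, adjusted p = 0.0579), and its difference was -0.99 with quantile normalization. The Mef2c difference was 0.72 without C26 control C, still called (adjusted p = 0.0364), and 1.83 with quantile normalization. Mef2c averaged 2713 ± 323 in C26 tumor-bearing mice and 1325 ± 632 in C26 controls, and Hdac4 averaged 141 ± 4.98 in C26 tumor-bearing mice and 427 ± 197 in C26 controls (SD, n = 3 each). The median of the list was 0.12 in C26, 0.13 in LLC and -0.01 in KPP. In KPP Map2k6 was the single call, beside 11.3% of all 168 genes, and in LLC there was none, as for all genes. In fits of C26 alone Map2k6 was the only one of the pathway genes called above that still passed (adjusted p = 0.0272), and Mef2c and Hdac4 did not (adjusted p = 0.165 and 0.0901).

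Of 16 listed immediate early and stress transcription factors 14 were tested. In KPP tumor-bearing mice 3 were called higher and none lower, beside 5.36% of all 168 genes called higher, with a median difference of 0.60 against 0.01 over all genes. They were Cebpb (1.34, adjusted p = 0.0117), Maff, a small MAF factor (1.77, adjusted p = 0.0337), and Nfe2l2, the NRF2 factor of antioxidant genes (0.59, adjusted p = 0.0452). Maff stood at 409.6 in the highest KPP tumor-bearing sample and 69.8 in the lowest, against 27.8 to 59.4 in KPP controls. Its call was lost without KPP tumor-bearing B (1.06, adjusted p = 0.0958), tumor-bearing C, control A or control B (adjusted p of 0.0605 to 0.112). Nfe2l2 averaged 1494 ± 383 in KPP tumor-bearing mice and 970.2 ± 7.38 in KPP controls (SD, n = 3 each), and it did not pass when scaled to 4 housekeeping genes or with median centring. It was also lost without KPP tumor-bearing B (0.39, adjusted p = 0.158) and without any of 14 other samples (adjusted p of 0.0505 to 0.128). None of the 3, nor Map2k6, passed in a fit of the KPP samples alone (adjusted p of 0.0582 to 0.281). In C26 tumor-bearing mice Ddit3 was called higher and Myc and Elk1 lower, beside 8.93% of all 168 genes called higher and 21.4% lower. The list median was -0.39 in C26, against -0.31 over all genes. In LLC no member was called, nor was any of the 168 genes, and the list median was 0.16 against 0.01.

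Some markers of other cell types were called in C26 or KPP, and their part in the results above was not tested. In bulk tissue, fewer cells of a type and less RNA per cell cannot be told apart. Of 8 tested macrophage and monocyte markers 7 were called lower in C26 tumor-bearing mice, beside 21.4% of all 168 genes, with a summed level of 318 to 656 in tumor-bearing mice against 868 to 3975 in controls, and none was called in LLC (649 to 924 in tumor-bearing mice against 487 to 560.1 in controls) or KPP (1049 to 2432 in tumor-bearing mice against 1405 to 2316 in controls). Ly96 and Tlr8 were at or under 20 in all C26 and all LLC tumor-bearing samples. Control A, the C26 control with the lowest Hspb1 and Hspb2, had the highest sum of these markers, 3975, the highest value of the adipocyte gene Cfd, 9604, and the lowest Myl2. Cfd was 47.0 to 87.4 in C26 tumor-bearing mice against 1390 to 9604 in C26 controls (called lower), 170.2 to 1164 in LLC tumor-bearing mice against 297 to 623 in LLC controls, and 419.9 to 921 in KPP tumor-bearing mice against 1201 to 5037 in KPP controls.

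Of 8 fibroblast and connective tissue markers 2 were called higher and 3 lower in C26 and 1 higher and 3 lower in KPP, with none in LLC. Of all 168 genes 8.93% were called higher and 21.4% lower in C26, and 5.36% higher and 5.95% lower in KPP. The summed level of these markers was 1489 to 2234 in C26 tumor-bearing mice against 2578 to 7042 in C26 controls, 1787 to 2234 in LLC tumor-bearing mice against 1814 to 1871 in LLC controls, and 3834 to 3976 in KPP tumor-bearing mice against 5857 to 7650 in KPP controls. Of the 2 endothelial markers Flt1 was called higher in KPP (summed level of 1499 to 1918 in tumor-bearing mice against 777 to 1015 in controls) and neither in C26 (236 to 299 in tumor-bearing mice against 231 to 265 in controls) or LLC (226 to 337 in tumor-bearing mice against 189 to 237 in controls). Myl2 was not called in any model, and stood at 207 in KPP tumor-bearing A, 2123 in B and 575 in C, against 469 to 832 in KPP controls. KPP tumor-bearing B and C, with high Hspb1, also had the lowest Pgk1 of the KPP samples, at 2600.4 and 3512, against 5121 to 5850 in KPP controls and 5910 in tumor-bearing A.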

How the data were processed

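The deposited values are a normalized signal with 1 column per sample. The sources used here do not give the steps by which the authors made this signal. From the values, each model has the same geometric mean of 6 housekeeping genes in every sample, a background was subtracted in C26 and KPP, and LLC values under 20 were written as 20. Low values fall on steps of each sample's own size (within 0.1 of a step), which gave scale factors of 0.602 to 3.224 and the counts behind values. Subtraction and floor keep whole counts of all genes from being recovered, and no count test was run.

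Genes with at least 3 of 18 samples at 20 or more (LLC only above 20) were kept. The test was limma (3.58.1, R 4.3.3) on log2(value + 1), with a mean for each of the 6 groups, 18 samples in 1 fit, 12 residual degrees of freedom, Benjamini-Hochberg adjustment over 168 genes and a two-sided threshold of 0.05. The fit was also run on simulated data in which each gene had the same spread in all groups, so that run does not cover groups of unlike spread. In the data the SD of Hspb2 on the log2 scale ran from 0.03 in LLC controls to 0.49 in C26 controls and KPP tumor-bearing mice. Genes named are the members, called members of the pathway lists (at most 6 a list and model), housekeeping genes and the 5 most alike genes. The members and lists were chosen with earlier results of these data known. Alternatives were pseudocounts, filters, scalings, a fit per model, the letters as a block, moderation with trend and each sample left out. Likeness without KPP samples, and the alternatives for pathway genes, were chosen after seeing the data. No 2 samples held identical values.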

Additional observations from a re-analysis of the deposited data

Results flagged for a closer look

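Hspb2 and the pathway genes called in a model were checked with limma's test of the difference between models itself, on the log2 scale. Of these, 10 pathway genes passed in at least 1 comparison, and Hspb2 did not. Other genes named above were not checked here. The pathway genes were chosen because they had passed in a model of these data, which favors a difference. Of all 168 genes 14.9% passed for C26 minus LLC and 16.1% for C26 minus KPP. For C26 minus KPP the differences were 4.88 for Map2k6 (adjusted p = 8.97e-05), 3.08 for Mapkapk5, 1.58 for Mef2c, 1.53 for Rps6ka5, -0.93 for Nfe2l2, -1.48 for Hdac4, -2.0 for Cebpb, -2.92 for Maff and -3.72 for Myc, with adjusted p of at most 0.0346. For C26 minus LLC they were 2.87 for Map2k6, 2.62 for Mapkapk5, 2.08 for Ddit3, 1.55 for Mef2c, -1.38 for Cebpb, -1.73 for Hdac4 and -3.13 for Myc, with adjusted p of at most 0.0402. Both comparisons share the C26 samples. Mapkapk5 lay at or near background in most samples.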

How the results depend on the processing

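The Hspb2 difference in C26 kept its sign under all 28 alternatives run and passed in 7 of 10 settings and 9 of 18 repeats without 1 sample. For many of these the sign was fixed in advance. Filters, a fit of C26 alone, the block, moderation and leaving out an LLC or KPP sample cannot move the difference. Of the repeats without a C26 sample, only that without control B passed (1.00, adjusted p = 0.0131). The difference stood at 0.77 without passing with no filter (adjusted p = 0.0505), in the fit of C26 alone (adjusted p = 0.198) and with the letters as a replicate block (adjusted p = 0.0513). It ranged from 0.52 to 1.00 when 1 sample was left out. Same-letter deviations correlated between -0.33 and 0.24, so the letters were not taken as pairs; under the block 36 genes passed in C26 and 2 in KPP. In KPP Hspb2 stood at -0.043 when scaled to 4 housekeeping genes and between -0.12 and 0.32 when 1 sample was left out. The C26 minus LLC difference passed at 1.30, 1.46 and 1.55 and the C26 minus KPP difference at 1.22 and 1.14 under the other scalings named above, and KPP minus LLC ranged from -0.064 to 0.38 when 1 sample was left out. In C26 51 genes passed, 4 in the fit of C26 alone, and 30 to 58 when 1 sample was left out (31 without tumor-bearing A, 30 without tumor-bearing B). In KPP 19 passed, 7 in the fit of KPP alone, and 8 to 28 when 1 sample was left out (11 without control A, 10 without control C, 8 without tumor-bearing C). In LLC 0 passed under every alternative run. The Hspb1 differences kept their sign under every alternative run. Depth limits Hspb2 in LLC controls, where the SD was 13.4 around 759 and counting error was 2.94% to 3.92% per sample. The causes of these changes were not tested.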
